A study of Caligus rogercresseyi with 6 samples.

Results

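In the sea louse Caligus rogercresseyi, 343 transcript contigs held nearly all of their RNA-seq signal in the chalimus and the adult male. They were found among 44089 contigs that each file lists, of which 20975 reached the level required. For each contig the count was divided by the file total and scaled to CPM, the count in a library of 1000000 counts, and the share of a library was its CPM over the sum of the CPM of the 5 libraries (egg, copepodid, chalimus, adult female and adult male). A member had a share of 20% or more in chalimus and in adult male, 90% or more in both together, and a summed CPM of 5 or more. The members were thus chosen by their CPM in these same libraries, so their levels are given as a description and carry no test.

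Sea lice are parasitic copepods of fish. The egg hatches into free-swimming larvae, of which the copepodid finds and settles on the host. The chalimus is the attached larva, which is tethered to the host and feeds on it while it passes through several moults. Adults of both sexes live on the host surface, and the female carries the egg strings. The labels name no sex and no moult for the chalimus sample.

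Each group was 1 library of total RNA from whole, wild-type animals that were pooled, with farmed Atlantic salmon named as the origin. The egg, copepodid and chalimus libraries carried no label of sex, and the female and male libraries were labelled adult. No treatment was labelled. With 1 library per group there was no replicate check and no test was possible. All intervals are 95% intervals of counting error only, and in whole animals fewer cells of a type and less RNA per cell cannot be told apart. The files identify contigs by GenBank identifier alone and pair none of them with a gene name or sequence, so no function is given for any contig, and at most a few identifiers are named under each criterion. The shallowest of the 5 libraries was copepodid, with 78380827 counts, and the deepest was adult female, with 149426248. A count of 0 allows up to 3 counts, or 0.0201 CPM in adult female and up to 0.0383 CPM in copepodid. The copepodid table stood apart in one respect that touches the results below: 1.08% of the total behind its FPKM values was not in the table, against at most 0.149% in the other libraries used. Contigs at 0 were not more frequent there, at 9.20% of the 20975 in copepodid and 9.28 to 10.2% in the other libraries. In copepodid, 687 contigs with 100 or more counts in each of the other 4 libraries were at 0. The same count was not made for the other libraries. Members were 5 of those 687, a number that the limits themselves keep low, since few members had 100 counts in egg and in female.

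The members made up 2.16% of all chalimus counts (Wilson interval 2.157 to 2.163%) and 3.37% of all adult male counts (3.362 to 3.368%). In the remaining libraries their part was far smaller, at 0.133% in copepodid, 0.117% in adult female and 0.0692% in egg. The joint share of chalimus and male had a median of 99.1% over the members, 251 members had 95% or more, and 174 had 99% or more. The median level was 9.36 CPM in chalimus and 19.3 CPM in adult male, against 0.0746 CPM in egg, 0.0937 CPM in adult female and 0 in copepodid. Levels in chalimus ran from 1.21 to 2001 CPM and in adult male from 1.67 to 4377 CPM. Every member had at least 100 counts in each of the 2 libraries, so the counting interval of the male over chalimus ratio was narrow, with an upper bound at most 1.46 times the lower one.

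**Figure D1:**
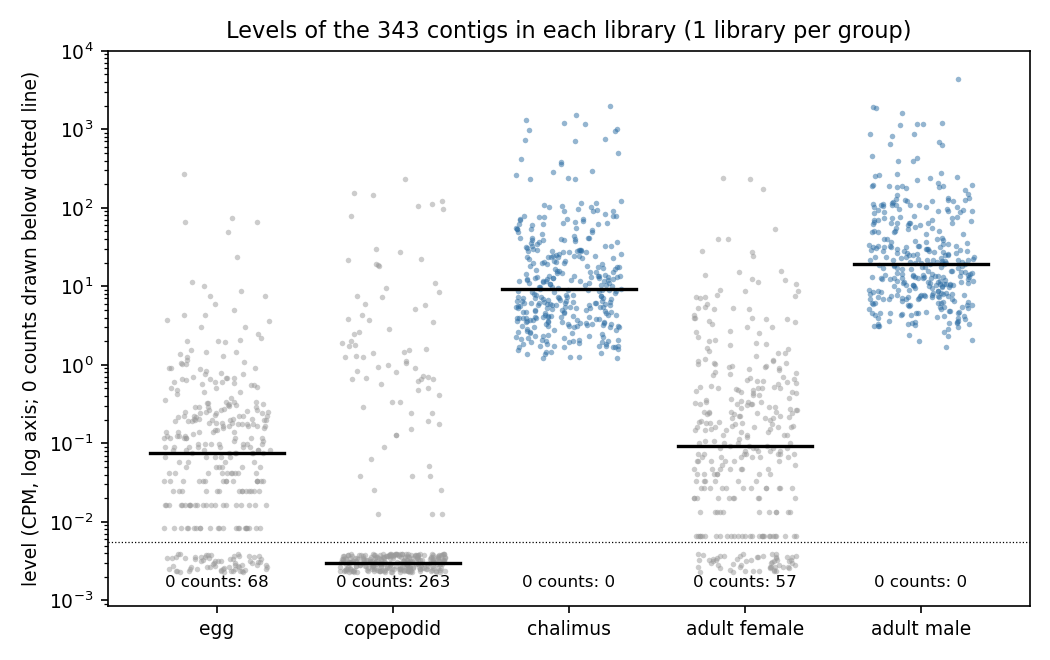
Level of each of the 343 members in each library, in CPM on a log axis, 1 point per contig; black bars are medians and points below the dotted line had 0 counts. The chalimus and adult male points lie at 1.21 CPM or more, whereas 263 of the 343 contigs had 0 counts in copepodid, 68 in egg and 57 in adult female.

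The size rule used for single comparisons was a CPM ratio of 4-fold or more with at least 50 counts in the higher library, over all contigs with 50 counts in either library. The share limits nearly fix its outcome for the members, so nothing is read from these counts. In chalimus over egg 342 of 343 members passed, where 15.1% of all 23441 contigs did. In chalimus over copepodid 343 passed (background 29.2%), and in chalimus over adult female 336 passed (background 19.6%). In adult male over egg 342 passed (background 14.1%), over copepodid 342 (background 25.8%) and over adult female 339 (background 15.5%). The members that missed by single comparison were GAZX01025471 for chalimus over egg, GAZX01031955 for male over egg and GAZX01031836 for male over copepodid, which were named after their values were seen. The median log2 CPM ratio of the members to adult female was 6.55 in chalimus and 7.57 in adult male, with 3 counts in place of 0, and over all contigs it was 0.04 and -0.16.

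The same limits were applied to each of the 10 pairs of libraries to place this one. Chalimus and adult male shared 343 contigs, egg and copepodid 290, copepodid and chalimus 113, and egg and adult female 56. The other 6 pairs had between 2 and 23, with 23 for the adults of both sexes and 21 for chalimus and adult female. The chalimus library therefore shared 343 contigs with males and 21 with females by these limits. The order of the leading pairs depended on the scaling. With TMM factors (trimmed mean of M-values) chalimus with male and egg with copepodid both had 311, and with DESeq2 size factors both had 271. Chalimus with female had 16 and 14 under those scalings.

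**Figure D2:**
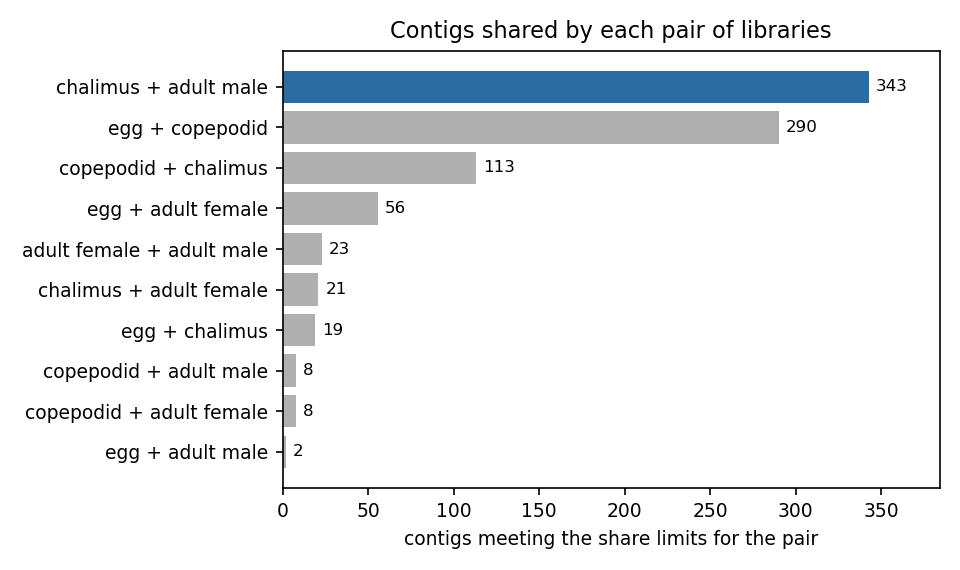
Number of contigs that met the share limits for each of the 10 pairs of libraries, with CPM from file totals. The chalimus and adult male pair has 343 contigs, followed by egg and copepodid with 290, and no other pair is above 113.

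Most members were higher in adult male than in chalimus. The limits used these same values, so this is a description. The limit on the male share alone left out 227 contigs, and that on the chalimus share alone 143. More contigs were thus left out at the chalimus end, and the ratios over all contigs given below had no such limit. Of the 343, 295 were higher in male and 48 in chalimus, and for 10 the counting interval of the ratio included 1. The median male over chalimus ratio was 2.33-fold, a log2 ratio of 1.22, with quartiles of 0.67 and 1.59. Over the 18859 contigs of the same summed level that were counted in both libraries the median was -0.32. At 2-fold or more with 50 counts in the higher library, 218 members (63.6%) leaned to male and 19 (5.54%) to chalimus, whereas among all 22033 contigs tested 10.4% were that much higher in male and 27.2% that much higher in chalimus. The limits kept the ratio at 4-fold or less in either direction, and the highest was 3.95-fold. Scaling moved the lean but not its direction. The same 343 contigs had a median log2 ratio of 1.40 with TMM factors and 1.61 with DESeq2 size factors, while the median of all contigs counted in both libraries moved from -0.36 with file totals to -0.18 and 0.03.

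The members did not spread evenly between the 2 ends of the range. Among the 713 contigs with 90% or more of their share in the pair, adult male took 70 to 80% of the paired CPM in 173, 60 to 70% in 94 and 80 to 90% in 96. Only 24 lay at 20 to 40% and 8 at 10 to 20%, and 219 lay under 10%. The male-leaning members thus took in the top of a single broad peak that ran on past the limit. A stretch with few contigs lay between these members and the contigs of chalimus alone. A limit of 20% on the chalimus share cut through that peak. The contig just inside it, GAZX01030584, had 300 counts in chalimus and 1310 in male, a chalimus share of 20.1%. The contig just outside, GAZX01031757, had 1750 and 7842 counts and a share of 19.98%. In all, 143 contigs met every limit except that on the chalimus share, and 227 met every limit except that on the male share.

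**Figure D3:**
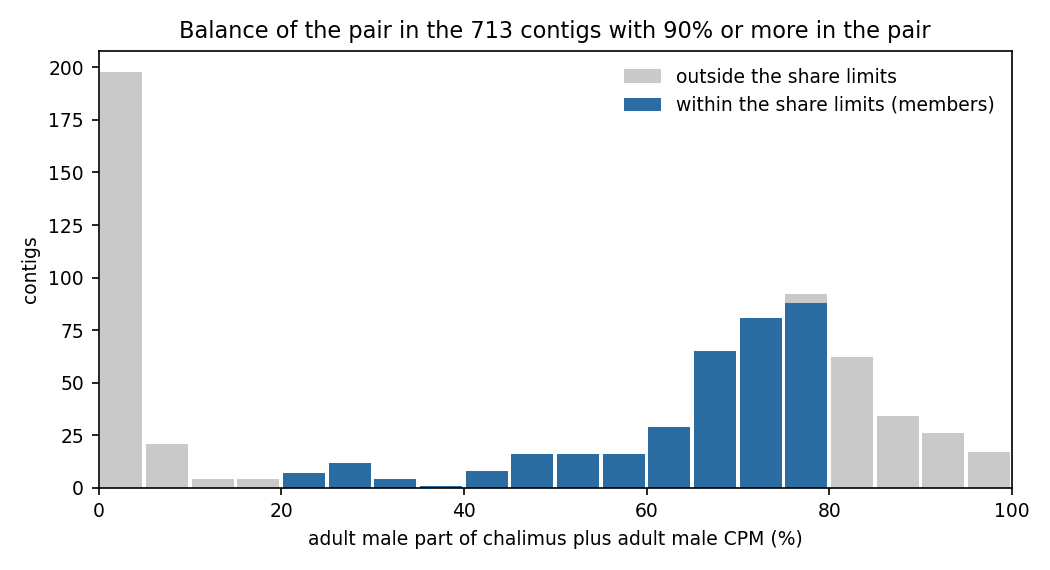
Adult male part of the paired chalimus and adult male CPM, in percent, for the 713 contigs with 90% or more of their share in the pair, in steps of 5; blue marks members. The tallest of the member bars, at 75 to 80%, holds 88 members, and the bar at 0 to 5% holds 198 contigs that were not members.

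Among the share limits the gap was widest for the male share. There the member just inside was GAZX01027134 at 20.3% and the contig just outside was GAZX01027826 at 16.9%. For the joint share, GAZX01031241 was inside at 90.01% and GAZX01017032 outside at 89.997%. For the summed level, GAZX01028400 was inside at 5.09 CPM and GAZX01017504 outside at 4.71 CPM.

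A few abundant members carried much of the signal. The 10 with the highest paired CPM held 50.1% of the members' chalimus counts and 46.2% of their male counts, and the 20 highest held 70.7% and 62.8%. Of those 10, only 3 leaned to male and 9 were counted in copepodid. GAZX01031241 (3602 nt) was the highest. Its level was 4377 CPM in adult male and 1313 CPM in chalimus, and it reached 268 CPM in egg, 241 CPM in female and 122 CPM in copepodid. Adult male was 3.33-fold above chalimus (3.32 to 3.35), and no library was at 0. This contig sat at the limit of the joint share, and it was not a member with TMM or DESeq2 scaling. In the file that counts female and male together it gained 5.69% over their sum, so its count is less certain than its interval. GAZX01013388 (3851 nt) was nearly even. It stood at 2001 CPM in chalimus and 1939.7 CPM in adult male, with 232 CPM in female, 113 CPM in copepodid and 4.31 CPM in egg, a male over chalimus ratio of 0.969 (0.964 to 0.975) that turned above 1 with TMM and DESeq2 scaling.

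Per length, the highest members were different contigs. On the FPKM scale, which divides by contig length, 30 members reached 100 FPKM in both libraries and 153 reached 10. GAZX01028118 (811 nt) had 1435 FPKM in chalimus and 1964 FPKM in adult male, and GAZX01031836 (671 nt) had 1779 FPKM and 676 FPKM. These were also the members with the highest copepodid share, and neither was a member with TMM or DESeq2 scaling. In CPM, GAZX01028118 had 1.39 in egg, 230.3 in copepodid, 1164 in chalimus, 0.616 in adult female and 1593 in adult male, so that 7.70% of its share was in copepodid. GAZX01031836 had 5.04 in egg, 148 in copepodid, 1194 in chalimus, 1.05 in adult female and 454 in adult male, with 8.19% in copepodid. Both contigs were thus low in egg and adult female and well counted in the copepodid, chalimus and adult male libraries.

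The copepodid library divided the members into contigs at 0 and contigs counted there. It had 0 counts for 263 members (76.7%), where 9.20% of all contigs of that summed level had 0 in copepodid. The limits favour such contigs, since they remove those well counted in copepodid, and with shares taken over the other 4 libraries 263 of 535 contigs (49.2%) were at 0 there. Under the same limits, 71.4% of the 21 contigs of chalimus and female and 69.6% of the 23 of both adults were at 0 there. For egg with female, chalimus and male the figure was 41.1% of 56, 15.8% of 19 and 0% of 2. In egg, 19.8% of the members and 10.2% of all contigs of that summed level were at 0. In adult female it was 16.6% and 10.04%, again under limits that favour low values. Values of 1 to 9 counts were found for 11 members in copepodid, 106 in egg and 90 in adult female, so members in copepodid were mostly at 0 or well counted. For the 263, chalimus was at least 19.1-fold to 7721-fold higher than copepodid, taken as the lowest bound over file totals, TMM and DESeq2 scaling with 3 counts in copepodid, and provided that no counts of these contigs were left out of the copepodid table. Whether counts were left out there was not tested.

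Contigs at 0 in copepodid and contigs counted there differed in level and in lean. The 263 at 0 had a median summed level of 23.8 CPM and a median log2 male over chalimus ratio of 1.29 (quartiles 0.94 and 1.64), and 189 of them (71.9%) leaned to male. The 80 counted in copepodid had a median summed level of 91.7 CPM and a median log2 ratio of 0.36 (quartiles -0.19 and 1.40), and 29 (36.3%) leaned to male. Both sets ran over nearly the whole permitted range of ratios, so they overlapped. The 80 made up 1.62% of the chalimus library and 2.095% of the male library, more than the 0.537% and 1.27% of the other 263. The contigs at 0 in copepodid were also lower in the remaining libraries, with under 10 counts in egg and in adult female for 112 of 263, against 7 of 80. Level moves with these differences: 222 of 263 members under 100 paired CPM were at 0 in copepodid (84.4%), and 41 of 80 above it (51.3%).

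**Figure D4:**
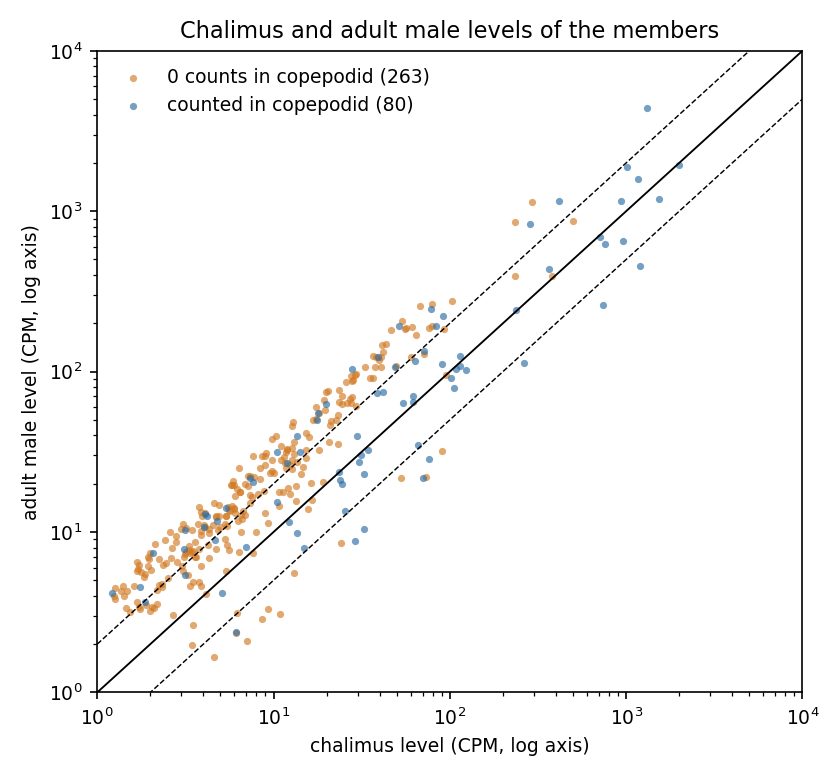
Chalimus and adult male level of each member in CPM, both on log axes, coloured by whether the contig was counted in copepodid; the solid line marks equal levels and the dashed lines 2-fold differences. Most of the 263 contigs at 0 in copepodid lie near or above the upper dashed line, and the 80 counted there reach to higher levels and lie closer to the line of equal levels, and the colours overlap.

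Without the copepodid library, shares taken over the other 4 gave 535 members, among them all 343. The added contigs were abundant, since the 535 made up 7.80% of the chalimus library and 10.9% of the male library. Adult male stayed above chalimus, with a median log2 ratio of 1.003. This setting was chosen after the data were seen.

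For 37 members the pair held the whole signal, with 0 counts in egg, copepodid and adult female. All members at 0 in egg and female were also at 0 in copepodid. The most abundant of them was GAZX01002695 (429 nt), with 7139 counts in chalimus (61.4 CPM) and 24794 in adult male (190.4 CPM), a 3.10-fold ratio (3.02 to 3.19). Adult male was at least 9484-fold above adult female for this contig, as the lowest bound over the scalings. GAZX01019399 (699 nt) had 4598 counts in chalimus and 15453 in adult male, a 3.002-fold ratio (2.90 to 3.10). Both contigs had the same count in the file that counts the sexes together as in male alone, a net change of 0. With DESeq2 scaling GAZX01002695 was not a member.

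The male-leaning contigs had the lowest median shares in egg and adult female, while in copepodid the median share was 0 whatever the lean. Under the limits a ratio near 4-fold in either direction leaves little share for other libraries, but a 2-fold lean does not. Why the shares differed with the lean was not tested. The median share of the 218 male-leaning contigs was 0.140% in egg and 0.179% in adult female. It was 0.342% and 0.997% for the 106 contigs within 2-fold, and 0.861% and 2.496% for the 19 chalimus-leaning contigs. Of the 218, 189 were at 0 in copepodid and 42 in adult female, and of the 19, 11 were at 0 in copepodid and 0 in adult female. The ranges overlapped, with female shares of up to 8.86% among male-leaning contigs and as low as 0.0583% among chalimus-leaning ones. In the same order of groups the median summed levels were 28.7, 30.6 and 41.03 CPM. The 218 made up 1.79% of the male library and 0.584% of the chalimus library, and the 106 made up 1.48% and 1.31%.

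Single contigs show the extremes of the lean. GAZX01038191 (985 nt) had 247 counts in chalimus and 1093 in adult male and 0 in the other libraries, and its ratio of 3.95 (3.44 to 4.56) was the highest. GAZX01010326 (855 nt) had 744 and 3275 counts, also with 0 elsewhere, and a ratio of 3.93 (3.63 to 4.26). With TMM and with DESeq2 scaling both passed 4-fold and were no longer members. At the other end GAZX01027134 (1512 nt) had 1274 counts in chalimus, 401 in adult male, 173 in adult female and 0 in egg and copepodid, so that chalimus was 3.56-fold above male (3.18 to 3.99). Its log2 male over chalimus ratio moved from -1.83 to -1.65 with TMM and -1.44 with DESeq2 scaling. In the file that counts female and male together its count changed by more than 1%, so this ratio is less certain than its interval. GAZX01017868 (1031 nt) had 820 counts in chalimus, 271 in male, 41 in female, 9 in egg and 0 in copepodid, and was 3.39-fold higher in chalimus (2.95 to 3.90). A ratio this near to 4-fold in male leaves almost no share for other libraries under the limits, so nothing is read from the 0 counts of the male-leaning extremes. Nearest to equality was GAZX01020392 (853 nt), with 95.4 CPM in chalimus, 95.6 CPM in male, 11.9 CPM in female, 0.124 CPM in egg and 0 in copepodid, a ratio of 1.002 (0.976 to 1.03). GAZX01003168 (499 nt) followed at 23.4 CPM in chalimus and 23.7 CPM in male, a ratio of 1.01 (0.959 to 1.06), with 159 counts in copepodid, 169 in female and 22 in egg. With TMM scaling the log2 ratios of GAZX01020392 and GAZX01003168 were 0.18 and 0.20, and with DESeq2 scaling 0.39 and 0.40. Their evenness thus held with file totals only.

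Of the 306 members with any count in egg, copepodid or adult female, the largest remaining share was in female for 153, in egg for 120 and in copepodid for 33. The highest egg shares were 8.02% in GAZX01025471 (55 counts in egg, 202 in chalimus, 446 in male, 10 in female, 0 in copepodid) and 6.97% in GAZX01018660 (80, 441, 631, 31 and 0 counts in the same order). The highest female shares were 9.30% in GAZX01019597 (193 counts in female, 1081 in chalimus, 431 in male) and 9.28% in GAZX01021682 (492, 1912 and 2051 counts). All 4 were at 0 in copepodid. Low shares were still well counted in places, since 77 members had 100 or more counts in adult female.

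Contig length and identifier order were not used by the limits. The members had a median length of 1056 nt (5th to 95th percentile 487 to 3060 nt), against 1461 nt (395 to 4382 nt) for the 20975 contigs of the same summed level, and 45.2% against 31.6% were under 1000 nt. The limits on level count reads without regard to length, and the distributions overlapped widely. Contigs with 80% or more of their share in chalimus alone (295) had a median of 709 nt, and those with 80% or more in adult male alone (121) had 1030 nt. At 0 in copepodid were 71.1% of the male contigs and 35.6% of the chalimus contigs, beside the 76.7% of the members. The longest member was GAZX01041411 (15002 nt, within 1 nt), at 123 CPM in chalimus and 103 CPM in adult male, and the shortest was GAZX01013623 (313 nt), at 32.5 and 23.0 CPM, which was not a member with TMM or DESeq2 scaling.

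Members tended to follow each other in the identifier numbering. A next or previous identifier that was also a member was found for 100 of 343 (29.2%), while members made up 1.64% of the contigs of that summed level. For contigs concentrated in chalimus the corresponding share was 47.1%, and for those concentrated in adult male 39.7%, so this ordering was not particular to the members. Of the 336 non-member neighbours of that level, 26 were concentrated in adult male and 2 in chalimus, beside 121 and 295 of all 20975 contigs. Chalimus and male together held 90% or more of the share in 9.23% of these neighbours and in 3.40% of the 20975. The 3.40% were 713 contigs that include the 343 members, so the figure among non-members was lower. The 100 contigs formed 39 runs of 2 and 6 longer runs. Over the 55 adjacent pairs the median difference in log2 male over chalimus ratio was 0.22, against 0.63 over all pairs of members. The labels do not say how the contigs were numbered, and whether consecutive contigs belong to one gene was not tested, so members cannot be counted as independent genes.

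The longest run was GAZX01020901 to GAZX01020906, 6 contigs of 487 to 977 nt. Together they had 62.1 CPM in chalimus and 210.2 CPM in adult male, a 3.39-fold ratio (3.30 to 3.48), with 0 counts in copepodid, 4 in female and 13 in egg. All 6 leaned to male, by 2.31-fold to 3.56-fold. Within the run GAZX01020901 had 2.64 CPM in chalimus and 7.95 CPM in male, GAZX01020902 had 3.19 and 7.49 CPM, and GAZX01020906, which was not a member with TMM or DESeq2 scaling, had 41.2 and 146 CPM. In the file that counts the sexes together the 6 contigs changed by 194 counts when each change is added without its sign, and by -24 counts in sum, so that some contigs gained and others lost. In the run of 4 from GAZX01031876 to GAZX01031879 the changes were 112 without sign and 0 in sum. Not every run balanced in this way. In GAZX01038186 to GAZX01038188 the changes were 197 without sign and 135 in sum, and in the pair GAZX01032383 and GAZX01032384, named after its values were seen, they were 180 and -180. Whether reads passed between contigs of a run was not tested. In GAZX01038186 to GAZX01038188 the ratios were also mixed. The first contig had a male over chalimus ratio of 0.387 (0.337 to 0.442), and the others had 3.91 and 3.67, and on recounting the first gained 102 counts on a male count of 309.

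**Figure D5:**
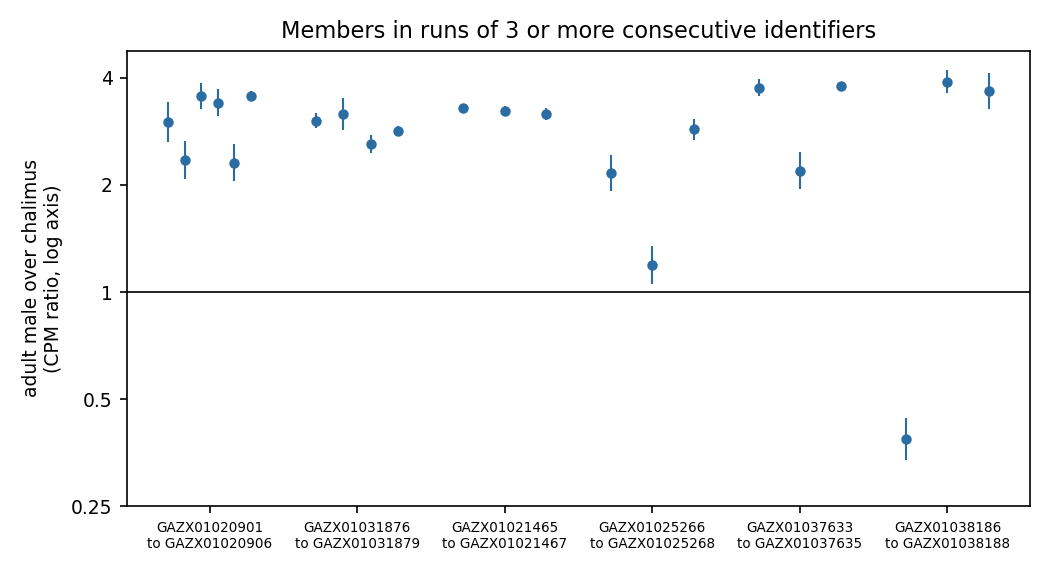
Male over chalimus CPM ratio, on a log axis, of the 22 members in the 6 runs of 3 or more consecutive identifiers; error bars are 95% exact counting intervals and the line marks equal levels. The first run lies between 2.31 and 3.56, and GAZX01038186 in the last run, at 0.387, is the only point below 1.

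A further file gave a second count of the adult data. The file labelled adult, with no sex, had a total equal to the female and male totals together, with a difference of 0 counts, and it was used here only to see how far counts of the same data can shift. Its count equalled the sum of female and male for 203 members (59.2%), and for 45.7% of the 19024 contigs of the same summed level with counts in either sex. It lay within 1% for 273 members (79.6%) and 64.2% of those contigs. The largest changes were in GAZX01023705 (1844 nt), which fell from 65 female and 1980 male counts to 1125, and in GAZX01035177 (3026 nt), which fell from 38 and 2742 counts to 1864. Their male over chalimus ratios, 3.31 and 0.886, are less certain than counting alone would make them, and the second turned above 1 with TMM and DESeq2 scaling. GAZX01023705 was not a member with DESeq2 scaling. With the 273 contigs alone the median log2 ratio was unchanged at 1.22.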

How the data were processed

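RNA-seq of whole-animal pools gave 6 files for 6 groups of 1 library, grouped by the samples' titles. Each file gives, per contig, 1 count and 1 FPKM. The counts as deposited by the authors were not normalised, and the FPKM as deposited by the authors were scaled by contig length and a library total, per the file headers and the values. Per the labels' protocols, RNA was extracted with Trizol and RNeasy columns, and Illumina libraries were made. For the aligner, the counter and the assembly, names and settings were not given in the sources used here. Intervals and bounds for 0 counts are approximate if the counting split reads between contigs and rounded the result.

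CPM were taken from file totals. Lengths were recovered from counts and FPKM, a single whole length for 342 of the 343 members. Ratios carry Clopper-Pearson intervals and shares of counts Wilson intervals. TMM (edgeR 4.0.16) and DESeq2 (1.42.0) factors over the 5 libraries were alternatives (R 4.3.3, Python 3.11.15). The rule was run on simulated data with counting noise only and contigs planted well inside or outside the limits. That run cannot show how the rule treats contigs near a limit. Libraries held 78380827 to 149426248 counts. The members and lists were chosen with earlier results of these data known. Contigs were named as at most 2 (3 for the longest run, 1 each for longest and shortest) per criterion: highest CPM, highest FPKM, extreme and even ratios, 0 elsewhere, highest share elsewhere, length, run, recounting, and both sides of each limit. Gene lists and sequences were not used, since no file names the contigs.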

Additional observations from a re-analysis of the deposited data

How the results depend on the processing

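The number of members stayed within 1.5 times the 343 under every alternative but 2, with 782 without a minimum level and 535 without the copepodid library, the latter chosen after the data were seen. Which contigs were members changed more than their number. Of the 343, 300 were still members with TMM scaling, among 311 in all, and 247 with DESeq2 scaling, among 271 in all. The median log2 male over chalimus ratio stayed above 0 throughout. It was 1.35 with TMM, 1.39 with DESeq2, 1.36 and 1.002 with 15% and 25% as lowest share, 0.997 and 1.35 with 85% and 95% as joint share, 1.13 at a summed CPM of 1, 0.570 without a minimum and 1.003 without copepodid. In the same order, the members held 1.47, 1.52, 2.40, 1.68, 3.73, 0.752, 2.17, 2.17 and 7.80% of the chalimus counts, and 2.08, 1.94, 4.43, 2.07, 5.88, 1.61, 3.38, 3.38 and 10.9% of the male counts. At a summed CPM of 10 they held 2.14 and 3.34%, and with contigs stable on recounting 1.95 and 2.82%. The falls with the scalings, with 25% and 95%, and with contigs stable on recounting include the loss of GAZX01031241. The median length moved only without a minimum, to 857.5 nt. By pair, TMM and DESeq2 gave 9 and 6 contigs for egg with chalimus, 37 and 35 for egg with female, 14 and 15 for copepodid with female and 13 and 17 for copepodid with male, and DESeq2 gave 173 for copepodid with chalimus. Scaling reversed the log2 ratio of 4 named contigs near equality, to 0.14 (TMM) and 0.34 (DESeq2) for GAZX01013388, 0.12 and 0.33 for GAZX01021682, 0.0079 and 0.22 for GAZX01035177, and 0.14 with DESeq2 for GAZX01041411. Beyond the changes that each setting makes by construction, the cause was not tested. No paired analysis was possible because each group has 1 library, and for the same reason no replicate could be left out. Depth did not limit the ratio of the pair, and it limited what could be said of contigs at 0 elsewhere.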
